A study of Mus musculus with 32 samples.

Results

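Bone marrow-derived macrophages (BMDMs) lost *Trex1* by inducible Cre recombination, and their transcripts were compared with those of control cells on day 2 after the inducing treatment. The comparison uses 4 of the 32 RNA-seq libraries of the series, chosen by their labels alone: 2 libraries of Trex1 FL/FL cells and 2 of Trex1 WT/FL cells, both treated with 4-hydroxytamoxifen (4-OHT, 2 µg/ml for 22 h). All cells carried R26-CreERT2, a Cre recombinase expressed from the ubiquitous Rosa26 locus that becomes active when 4-OHT binds to it. The Trex1 FL/FL cells could lose both copies of the loxP-flanked gene, and the Trex1 WT/FL controls kept a wild type copy and could lose the other. Untreated cells of both genotypes, and cells harvested on days 1, 3 and 4, enter the same fit and are given only where they bear on a day 2 value. Because the labels name no animal, culture or batch for the 2 libraries of a group, p-values measure the spread between these libraries, which may be technical.

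TREX1 is a DNase that degrades cytosolic DNA. When it is missing, DNA can activate cGAS and STING, and the type I interferon (IFN) that follows drives a large set of IFN-stimulated genes in macrophages. STING signaling also reaches NF-κB and stress pathways, so the results are ordered from the *Trex1* locus to the genes and pathways outside the classic IFN sets. IFN-stimulated genes were set aside with 368 symbols compiled by hand (337 passed the filter on low counts). Genes outside this list may still respond to IFN, in these cells too, and whether they do was not tested. The list held, for example, the chemokine genes *Ccl5*, *Ccl7* and *Ccl12* but not *Ccl4* and *Ccl8*.

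The 4 libraries held 37495466 to 53514961 counts each, within the range of all 32 libraries (35120505 to 63760884, median 44841991). All 12 macrophage markers were detected, among them *Adgre1* (3160 and 3260 CPM, counts scaled to sequencing depth, in the FL/FL libraries, 3215 and 3136 CPM in the WT/FL libraries) and *Csf1r* (2317 and 2323 CPM against 2677 and 2537 CPM). The summed level of these markers was 28077 to 30124 CPM in the FL/FL and 34105 to 36117 CPM in the WT/FL libraries, and *Lyz2*, the most abundant of them, fell by 0.38 on the log2 scale (adjusted p = 0.00215, edgeR quasi-likelihood test). It was the 1 macrophage marker that fell, and 2 rose, *Msr1* by 0.25 and *Aif1* by 0.39 (adjusted p = 0.00895 and 0.0484). Markers of neutrophils, mast cells, dendritic cells, T and NK cells, erythroid cells and fibroblasts summed to at most 15.9 CPM per list in every library. Osteoclast markers summed to 118 to 163 CPM in FL/FL and 103 to 111 CPM in WT/FL libraries, and 0 of the 5 passed the test. Endothelial markers, given by gene below, summed to 70.5 to 71.2 CPM in FL/FL and 14.3 to 18.3 CPM in WT/FL libraries. B cell markers summed to 156 to 158 CPM in FL/FL and 171 to 173 CPM in WT/FL libraries, nearly all from *Ighm*. In bulk RNA, fewer cells of a type and less RNA per cell cannot be told apart.

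*Trex1* (GRCm39 chromosome 9, 108887001 to 108888802, minus strand) stood at 14 and 9 counts in the FL/FL libraries (0.347 and 0.250 CPM) and at 2645 and 3116 counts in the WT/FL libraries (57.6 and 56.9 CPM). The FL/FL libraries held 0.521% of the WT/FL level, a log2 fold change of -7.56 (SE 0.186, adjusted p = 2.84e-17). On days 1, 3 and 4 after 4-OHT, both FL/FL libraries held 0 *Trex1* counts. These are transcript levels, and the paper states that much TREX1 protein remained on day 2. Every 31-base word of the annotated *Trex1* transcripts also occurs in transcripts of *Atrip*, the neighbour on the same strand that encodes a partner of the ATR checkpoint kinase, so their reads could only be shared out by estimation. *Atrip* stood at 10.5 and 12.2 CPM in the FL/FL and at 13.8 and 13.1 CPM in the WT/FL libraries, a difference that did not pass the test (log2 fold change -0.25, adjusted p = 0.0922). Against untreated cells of the same genotype and day, *Atrip* was lower after 4-OHT in FL/FL cells (log2 fold change -0.40, adjusted p = 0.00302, edgeR). In WT/FL cells that difference was -0.13 and did not pass. In the WT/FL controls, *Trex1* was lower after 4-OHT than in untreated cells of the same day (log2 fold change -1.06, SE 0.0969, adjusted p = 1.34e-06).

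The gene at the other end of *Trex1* changed with it. *Shisa5*, which encodes an endoplasmic reticulum membrane protein linked to p53-dependent apoptosis, lies on the plus strand (chromosome 9, 108867633 to 108887029), and its annotated 3′ end runs into that of *Trex1*. It is counted in the IFN list and was singled out here after its values were seen. The bases that both gene models cover, on opposite strands, are shown because they set the position of the 2 genes to each other. The plus strand of GRCm39 chr9:108887001-108887029 reads, in 29 bases:
Shisa5 and Trex1 overlap: tcagtgctatggaagtctttattcatcat

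*Shisa5* stood at 27.5 and 25.2 CPM in the FL/FL libraries and at 227 and 208 CPM in the WT/FL libraries. The FL/FL level was 12.1% of the control level (log2 fold change -3.04, SE 0.0938, adjusted p = 2.01e-17), and both FL/FL libraries lay far below both controls. No such difference was measured between untreated genotypes on day 2 (378 and 358 CPM against 406 and 374 CPM, log2 fold change -0.08), and the genotype difference after 4-OHT exceeded that in untreated cells by a log2 value of -2.96 (adjusted p = 1.46e-14). In WT/FL controls *Shisa5* was lower after 4-OHT than without it (log2 fold change -0.85, SE 0.0844, adjusted p = 1.21e-06). In that comparison of treated with untreated controls, 14 genes were lower (0.0918%) and 1 was higher (0.00655%) at an adjusted p below 0.05, and *Trex1* and *Shisa5* were among the 14. With 4-OHT, FL/FL cells held 94.6 and 99.4 CPM of *Shisa5* on day 1, 12.5 and 16.7 CPM on day 3, and 20.9 and 20.6 CPM on day 4, each time below both WT/FL libraries of that day. The extent of the removed segment is not given in the sources used here, and whether it reaches the end of *Shisa5* was not tested.

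Other genes within 100000 bases of *Trex1* moved less. *Pfkfb4*, which encodes a regulator of glycolysis and lies next to *Shisa5*, fell by 0.36 on the log2 scale (adjusted p = 9.36e-04), from 42.2 and 42.8 CPM in the WT/FL to 32.2 and 34.0 CPM in the FL/FL libraries. Once the difference between untreated genotypes was subtracted, its log2 value was -0.30 and did not pass (adjusted p = 0.101, edgeR). *Col7a1*, *Ccdc51* and *Tma7*, the remaining tested genes of this window, had log2 fold changes of -0.68, -0.07 and 0.02 and did not pass the test (adjusted p = 0.446, 0.875 and 0.928).

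**Figure D1:**
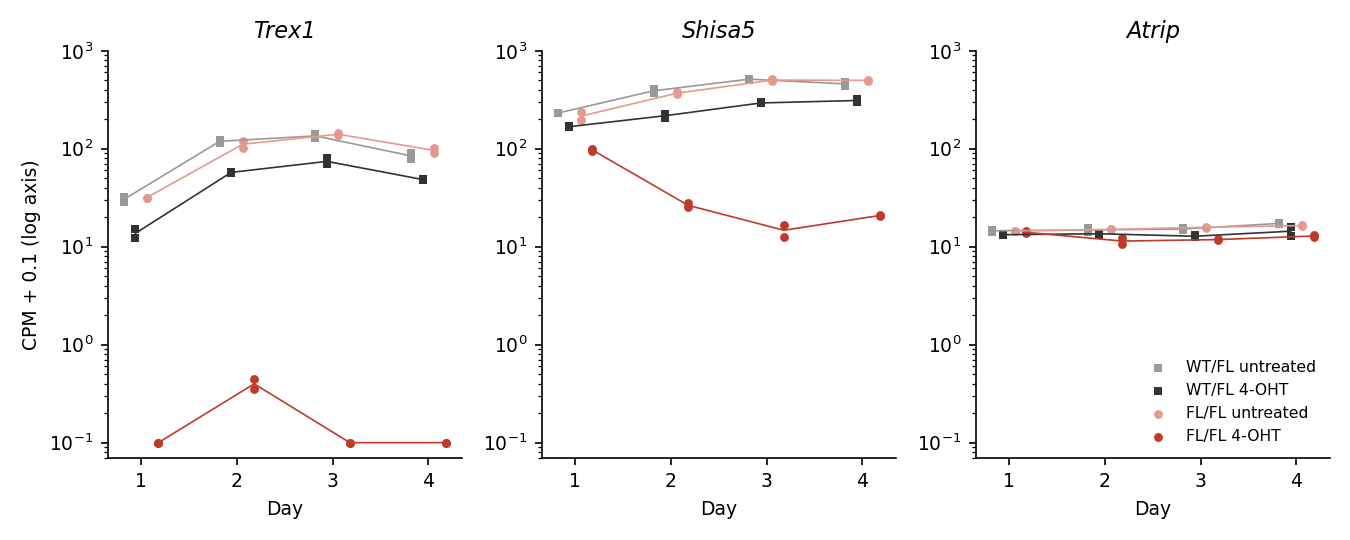
Levels of Trex1, Shisa5 and Atrip by day, in CPM plus 0.1 on a log axis, with one point per library and lines through the group means, for WT/FL and FL/FL cells with and without 4-OHT. On day 2 the 4-OHT-treated FL/FL libraries are at 0.347 and 0.250 CPM for Trex1 and at 27.5 and 25.2 CPM for Shisa5, below all other day 2 libraries, while Atrip lies between 10.5 and 15.3 CPM in all of them.

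Across all 15257 tested genes, 76 were higher (0.498%) and 13 lower (0.0852%) in FL/FL cells at the thresholds of the study, which are an adjusted p below 0.01 and a log2 fold change beyond 1.5 in either direction. Outside the IFN list, 28 genes were higher and 11 lower among 14920 tested, which is 0.188% and 0.0737%. The IFN list held 48 of the higher genes (14.2% of its tested members) and 2 of the lower ones (0.593%), *Trex1* and *Shisa5*. As a reference for the size of the IFN response, *Cxcl10* rose from 134 and 148 CPM to 777 and 835 CPM (log2 fold change 2.52, adjusted p = 2.18e-06), and *Ifit3*, *Isg15* and *Irf7* rose by 1.86, 1.65 and 1.61. With an adjusted p below 0.05 and no fold threshold, 931 genes outside the list rose (6.24%) and 725 fell (4.86%). These changes were small, with median absolute log2 fold changes of 0.38 and 0.35, and 817 and 688 of them lay below 1. The median log2 fold change over all tested genes was -0.01.

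The untreated genotypes served as background for these counts. On day 2 without 4-OHT, no gene passed the study's thresholds in edgeR, 2 were higher (0.0131%) and 1 lower (0.00655%) at an adjusted p below 0.05, and 588 had an unadjusted p below 0.05. Of the 28 higher and 11 lower genes outside the list, 21 and 9 also passed an adjusted p of 0.05 when the untreated difference was subtracted, as did 3.47% of all genes outside the list upward and 1.42% downward. Most were weakly expressed, and 23 and 10 of them had a mean below 10 CPM in the 4 libraries compared. With the untreated difference subtracted, 24 genes outside the list were called higher and 4 lower at the study's thresholds. Of these, 13 and 3 were among the 28 and 11. The counts, and which genes were called, also depended on the library left out. Without WT/FL library 1, WT/FL library 2, FL/FL library 1 and FL/FL library 2 in turn, 26, 15, 21 and 21 genes outside the list were called higher and 6, 7, 5 and 9 lower.

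**Figure D2:**
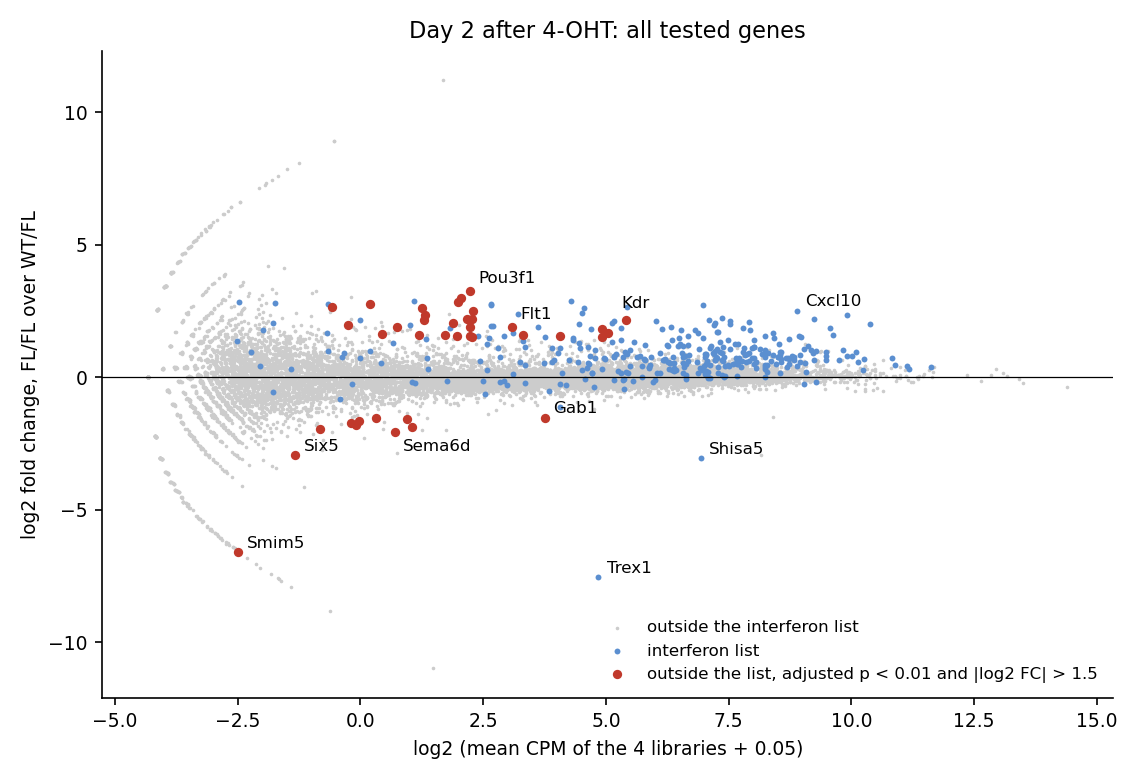
Log2 fold change of FL/FL over WT/FL cells on day 2 after 4-OHT against log2 of the mean CPM of the 4 libraries plus 0.05, for all 15257 tested genes. Genes of the IFN list (blue) sit mostly above 0, and the 28 higher and 11 lower genes outside the list (red) lie mainly at low expression; arcs of grey points at the left are genes with no counts in one group.

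The largest increase outside the list was that of *Pou3f1*, a POU-domain transcription factor. It stood at 8.81 and 7.96 CPM in the FL/FL and at 1.42 and 0.365 CPM in the WT/FL libraries (log2 fold change 3.26, SE 0.457, adjusted p = 2.09e-05). *Lipg*, endothelial lipase, followed with 7.97 and 6.63 CPM against 1.31 and 0.547 CPM (log2 fold change 2.98, adjusted p = 0.0025). The groups did not overlap for either gene, which the choice of genes by rank requires. The call of *Lipg* depended on WT/FL library 2 (log2 fold changes from 2.48 to 3.73 over its alternatives). *Pou3f1* missed an adjusted p of 0.05 in edgeR when only the 4 libraries were fitted.

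A pair of receptors for vascular endothelial growth factor rose together. *Kdr* (chromosome 5), which encodes VEGF receptor 2, stood at 69.1 and 68.5 CPM in the FL/FL and at 17.6 and 13.6 CPM in the WT/FL libraries (log2 fold change 2.14, SE 0.158, adjusted p = 7.16e-10). *Flt1*, VEGF receptor 1, stood at 13.6 and 13.0 CPM against 3.62 and 3.52 CPM (log2 fold change 1.90, SE 0.310, adjusted p = 9.3e-05). Both kept an adjusted p below 0.05 in all 13 alternatives, and in the interaction with untreated cells *Flt1* missed the study's thresholds (log2 value 1.59, adjusted p = 0.0286). *Cdh5*, which encodes the junction protein VE-cadherin, was also higher, with 2.03 and 1.94 CPM against 0.719 and 0.566 CPM (log2 fold change 1.63, adjusted p = 0.00374), and missed an adjusted p of 0.05 without WT/FL library 2. The other endothelial markers were near 0, with *Emcn* at 0 counts in all 4 libraries and *Tie1* at 0 CPM in both FL/FL libraries and at 0.0218 and 0.128 CPM in the WT/FL libraries.

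*Hdc*, histidine decarboxylase, which makes histamine, stood at 7.40 and 7.13 CPM against 1.35 and 1.84 CPM (log2 fold change 2.18, adjusted p = 0.00106). *Pla2g4c*, a cytosolic phospholipase A2, stood at 1.21 and 1.30 CPM against 0.305 and 0.328 CPM (log2 fold change 1.98, adjusted p = 0.00312). *Hsh2d*, an SH2-domain adaptor of hematopoietic cells, stood at 4.28 and 3.86 CPM against 0.980 and 0.639 CPM (log2 fold change 2.33, adjusted p = 0.00581). All 3 are low-level transcripts whose FL/FL libraries were close to each other. *Hsh2d* missed an adjusted p of 0.05 without WT/FL library 2 (log2 fold changes from 2.05 to 2.67 over its alternatives) and in the interaction with untreated cells, as did *Hap1* (5.82 and 5.83 CPM against 1.70 and 1.15 CPM, log2 fold change 2.03, adjusted p = 0.00613), which encodes a huntingtin-associated protein. *Pla2g4c* also missed it in the interaction.

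*Map2*, a microtubule-associated protein known from neurons, stood at 10.0 and 6.44 CPM against 1.37 and 1.57 CPM (log2 fold change 2.48, adjusted p = 7.49e-07). *Igsf9*, an immunoglobulin superfamily adhesion protein, stood at 7.63 and 7.02 CPM against 2.27 and 1.72 CPM (log2 fold change 1.88, adjusted p = 1.77e-06). The chemokine gene *Ccl4* stood at 47.1 and 47.5 CPM against 12.2 and 14.2 CPM (log2 fold change 1.84, adjusted p = 1.87e-06). Its 2 groups differed by far more than the libraries within them. The increases also held 3 genes whose counts are uncertain. *Sp140l1* (log2 fold change 2.17) and *Gm7609* (2.62) share 65.5% and 77.2% of their 31-base words with transcripts of other genes, most with *Sp140* and *Gm15433*. *Or2v1*, annotated as an olfactory receptor gene (log2 fold change 1.69, 50.5 and 49.5 CPM against 17.6 and 13.5 CPM), overlaps the IFN-inducible gene *Ifi47* on the same strand, and 7.38% of its 31-base words occur in other genes (1.78% in *Ifi47*).

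The decreases outside the list involved genes at very low levels. *Hpgd*, the dehydrogenase that inactivates prostaglandins, stood at 0.842 and 0.888 CPM in the FL/FL and at 3.16 and 3.17 CPM in the WT/FL libraries (log2 fold change -1.87, SE 0.273, adjusted p = 2.0e-05). *Sema6d*, a transmembrane semaphorin, stood at 0.569 and 0.638 CPM against 2.64 and 2.46 CPM (log2 fold change -2.07, adjusted p = 6.38e-06). *Noxo1*, an organizer subunit of NADPH oxidase, stood at 0.198 and 0.222 CPM against 0.980 and 0.657 CPM (log2 fold change -1.95, adjusted p = 4.46e-04), and 58.9% of its 31-base words occur in other genes, mainly the antisense neighbour *Tbl3*. All 3 kept an adjusted p below 0.05 in all 13 alternatives, and in the interaction with untreated cells *Sema6d* missed the study's thresholds (log2 value -1.39, adjusted p = 0.0246). *Six5*, a homeobox gene, had a log2 fold change of -2.93, and *Galnt9*, which encodes an N-acetylgalactosaminyltransferase, one of -1.79. *Smim5* had 0 counts in both FL/FL libraries against 6 and 21 counts (0.131 and 0.383 CPM) in the controls, which is at least 3.26-fold lower when 3 counts per library are taken as the floor. Its adjusted p was 0.00924, and it missed 0.05 without WT/FL library 2, FL/FL library 1 or FL/FL library 2. *Zfp882*, *Mageh1*, *Rap1gap* and *Elovl7* had log2 fold changes from -1.72 to -1.53. *Zfp882* missed an adjusted p of 0.05 in the interaction and without WT/FL library 1 or FL/FL library 1 (log2 values from -2.21 to -1.34 over its alternatives). *Elovl7* missed it without WT/FL library 2, FL/FL library 1 or FL/FL library 2 (from -1.83 to -1.27). *Rap1gap* was also lower without 4-OHT (log2 fold change -1.27), a difference that did not pass the test. Its difference after 4-OHT no longer passed once the untreated difference was subtracted (-0.30, adjusted p = 0.863). Nor did it pass with untreated FL/FL cells as control (-0.22) or without FL/FL library 2 (-1.18). *Gab1*, an adaptor of growth factor receptor signaling, had the smallest p of the decreases outside the list. It stood at 6.46 and 7.44 CPM against 20.7 and 19.2 CPM (log2 fold change -1.52, SE 0.0920, adjusted p = 6.9e-12).

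**Figure D3:**
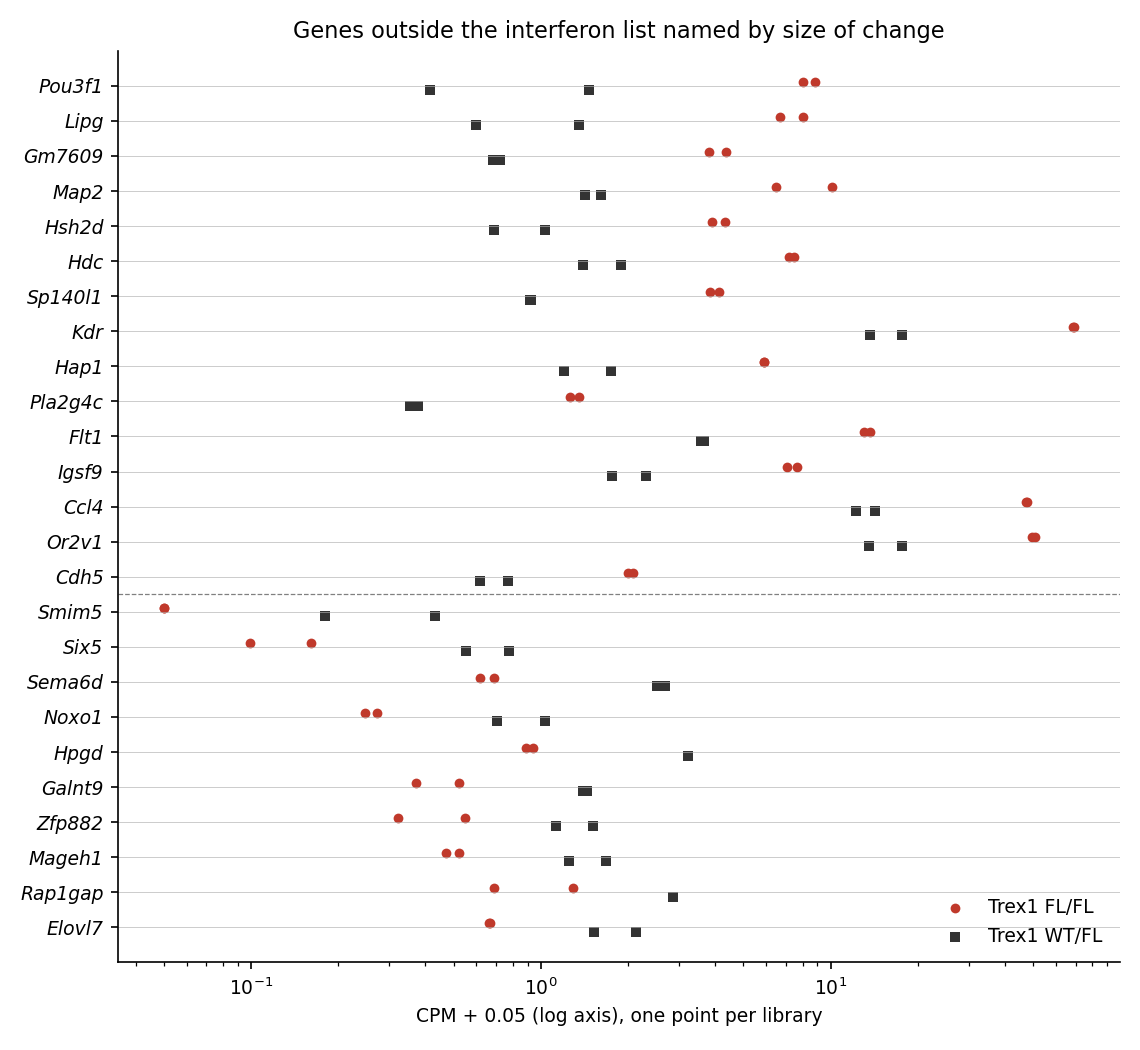
CPM plus 0.05 on a log axis in each of the 4 day 2 libraries for the 15 largest increases (above the dashed line) and 10 largest decreases (below it) among protein-coding genes outside the IFN list. FL/FL libraries (red circles) and WT/FL libraries (black squares) do not overlap for any of the 25 genes, as the choice of the genes requires; Kdr, Or2v1 and Ccl4 have the highest FL/FL levels, at 47.1 CPM or more, and most others stay below 10 CPM.

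On day 1, none of these 39 genes passed an adjusted p of 0.05 in edgeR, and 0 of the higher and 1 of the lower ones had an unadjusted p below 0.05. Outside the list, 1 gene was higher (0.0067%) and none lower at that threshold, and 308 of all genes reached an unadjusted p below 0.05. Of the 28 higher genes, 20 passed an adjusted p of 0.05 in the same direction on day 3 and 26 on day 4, when 8.55% and 11.9% of genes outside the list rose. Of the 11 lower genes, 4 did so on day 3 and 7 on day 4, when 9.16% and 17% fell. At the study's thresholds, 10 of the 28 were called on day 3 and 22 on day 4 (0.362% and 0.912% of genes outside the list), and 2 and 3 of the 11 (0.375% and 1.32%). For the 25 genes named by size of change, the day 2 difference was tested against the mean of the differences on days 3 and 4. It was larger on day 2 for *Map2*, which had log2 fold changes of 2.48, 0.77 and 1.06 on days 2, 3 and 4, and for *Mageh1*, with -1.66, -0.22 and 0.02. Both passed the edgeR test of this difference over all genes (adjusted p = 0.01 and 0.0382). The 25 genes were chosen for the size of their day 2 change, which favours a larger day 2 value in this test.

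**Figure D4:**
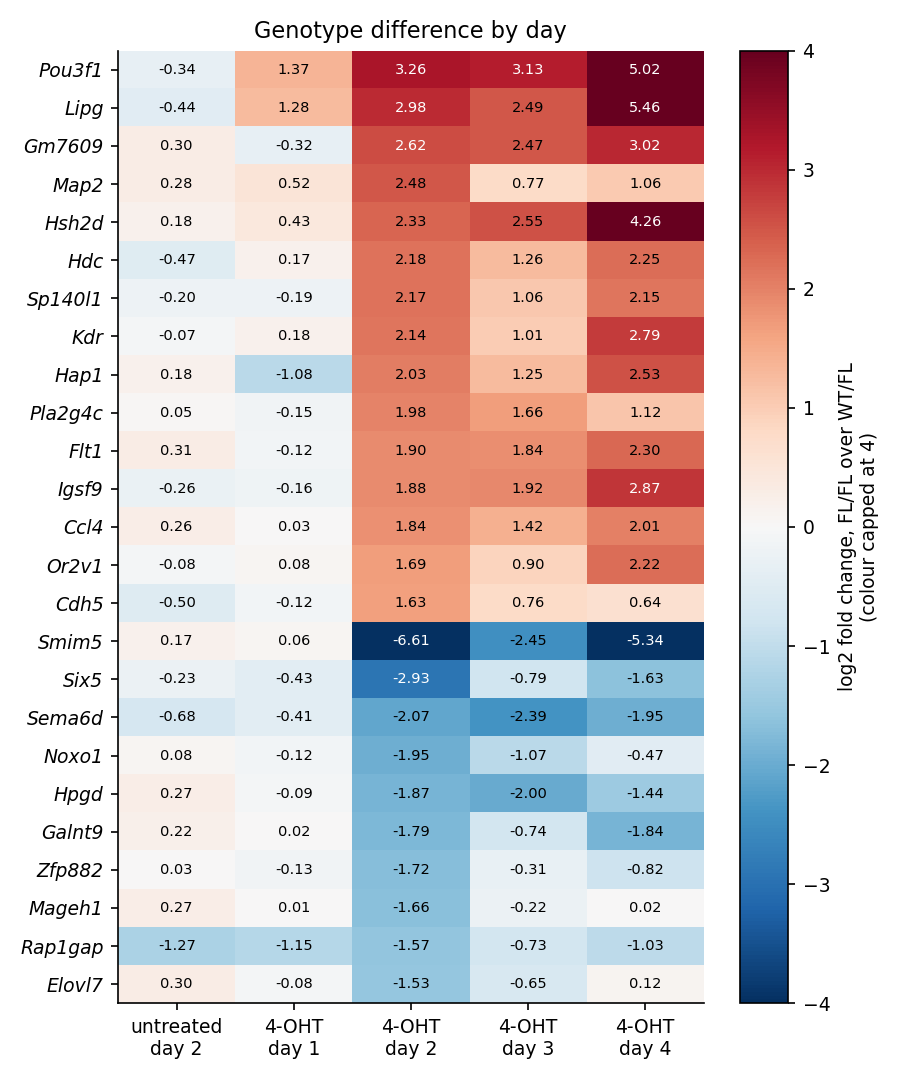
Log2 fold change of FL/FL over WT/FL cells for the same 25 genes in untreated cells on day 2 and after 4-OHT on days 1 to 4, printed in each cell, with the colour scale capped at 4. The 4-OHT columns of days 2 to 4 carry one sign for 23 of the rows, the exceptions being Mageh1 and Elovl7 on day 4, and the untreated column ranges from -0.68 to 0.31 except for Rap1gap at -1.27.

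The promoters of the called genes were searched for short motifs, from 250 bases before to 50 bases after each RefSeq start in the GRCm38.p6 table. The IFN-stimulated response element (ISRE, GAAA and GAAA with any 2 bases between them, on either strand), the site of the IFN-activated complex ISGF3 and of IRF proteins, was found in 21 of the 37 higher IFN-list genes with a window (56.8%), in 1 of 13 higher genes outside the list (7.69%), in 0 of 10 lower genes outside the list and in 3.99% of tested genes with a window. The gamma-activated site (GAS, TTCNNNGAA), which may share bases with an ISRE, was found in 8 of the 37, in 1 of the 13, in 1 of the 10 and in 8.2% of tested genes. The κB motif, GGGA and TTTCC with any base between them, was in 1 of the 37 and 0 of the 13 (0.585% of tested genes), and the E2F motif TTTCCCGC in 1 and 0 (2.34%). An AP-1 motif (TGANTCA) was in 9 of the 37 and 0 of the 13 (6.57%), and a CRE (TGACGTCA) in 0 and 1 (3.4%). A match is only a run of letters, and windows without one say nothing of the factor.

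Stretches around ISRE matches are shown for 3 IFN references and for the one higher gene outside the list that holds a match, each printed on the strand of its gene from 20 bases before to 20 bases after the match, cut at the edge of the window, with the match in capitals. These promoter sequences are from RefSeq. The IFN references *Isg15*, *Ifit3* and *Cxcl10* hold 3 overlapping, 2 and 1 ISRE matches. *Fbn1*, which encodes the matrix protein fibrillin-1, was the only higher gene outside the list with an ISRE, is shown for that reason and was chosen after its values were seen. It stood at 5.27 and 4.50 CPM in the FL/FL and at 1.63 and 1.57 CPM in the WT/FL libraries (log2 fold change 1.61, adjusted p = 0.00711). The windows lie at chr4:156200855-156200916 (*Isg15*, minus strand), chr19:34583353-34583436 (*Ifit3*, plus), chr5:92349073-92349122 (*Cxcl10*, minus) and chr2:125506506-125506555 (*Fbn1*, minus).
Isg15: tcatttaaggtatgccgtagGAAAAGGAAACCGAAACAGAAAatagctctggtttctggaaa
Ifit3: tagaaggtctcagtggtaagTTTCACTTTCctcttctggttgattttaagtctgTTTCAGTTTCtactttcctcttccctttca
Cxcl10: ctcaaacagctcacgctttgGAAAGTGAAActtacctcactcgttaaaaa
Fbn1: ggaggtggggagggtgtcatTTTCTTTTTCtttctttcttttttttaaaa

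Beyond single genes, 41 hand-compiled lists without members of the IFN list were described by how many of their tested members rose or fell at an adjusted p below 0.05. Outside the IFN list, 6.24% of all tested genes rose and 4.86% fell, with a median log2 fold change of -0.01. These shares stand beside the list counts below, and no test of a list against other genes was run. The lists and their members were chosen with earlier results of these data known, so their shares are not independent of the data.

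**Figure D5:**
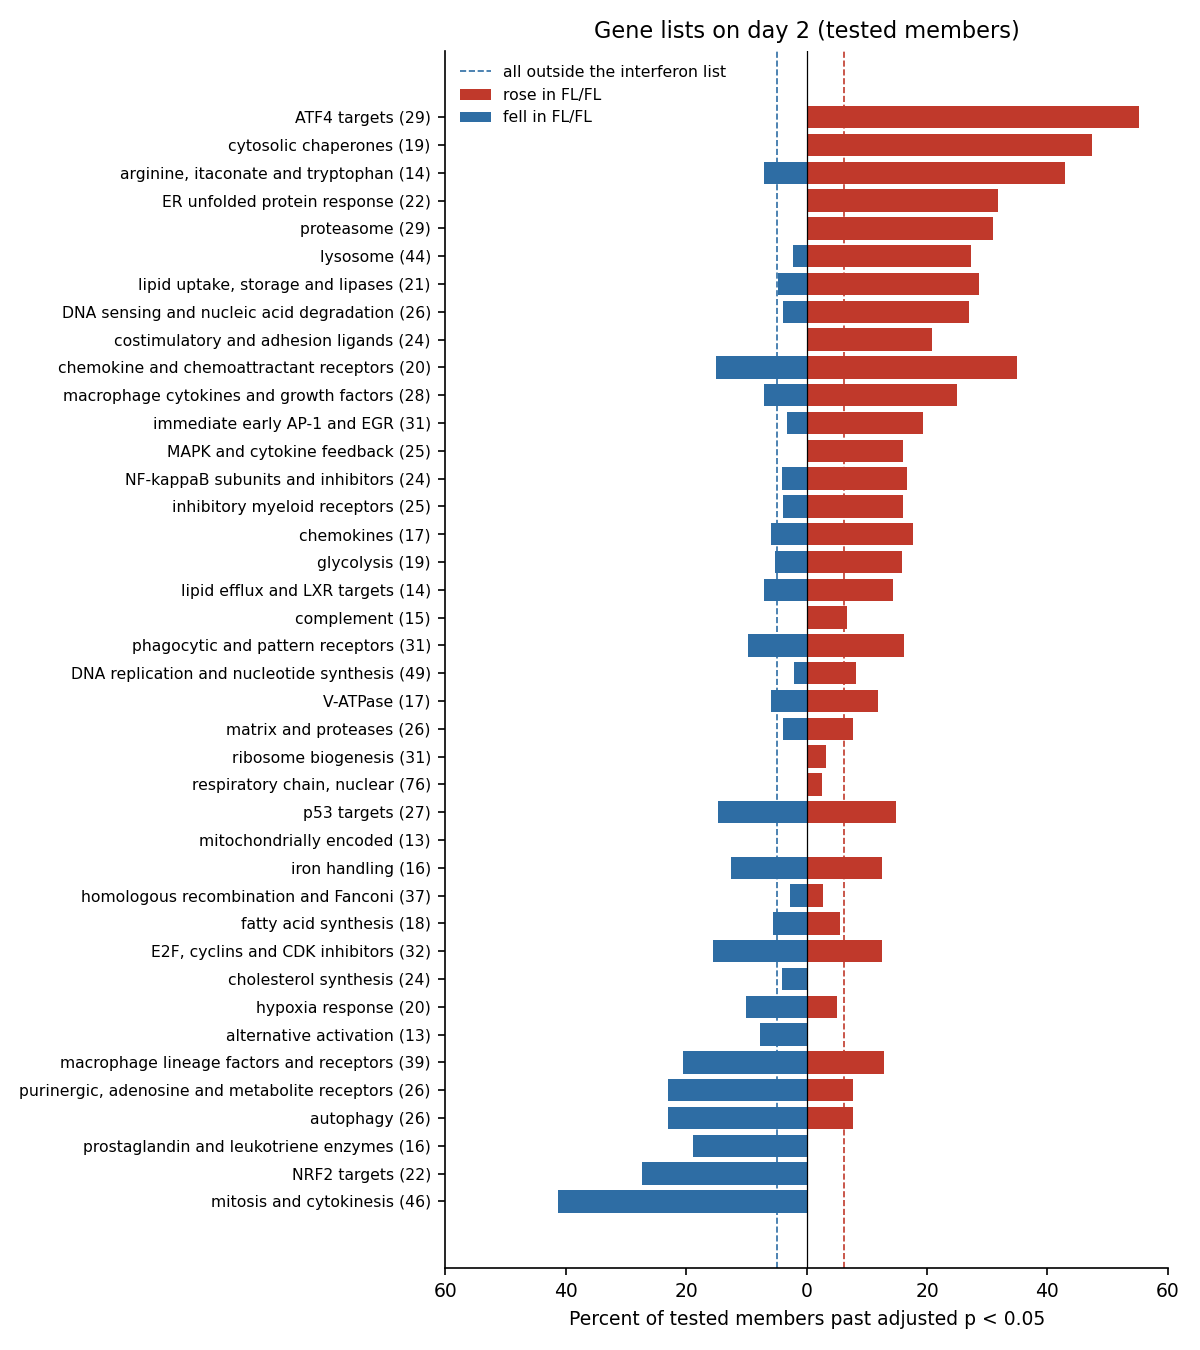
Percent of tested members that rose (red, to the right) or fell (blue, to the left) at adjusted p below 0.05 in each list with at least 10 tested members, with the number tested in parentheses; dashed lines mark the shares of all tested genes outside the IFN list, 6.24% and 4.86%. ATF4 targets have the highest share of increases (55.2%) and mitosis genes the highest share of decreases (41.3%).

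Of 29 targets of ATF4, the transcription factor of the integrated stress response, 16 rose and none fell (median 0.32). *Ddit3*, which encodes CHOP, rose from 20.4 and 19.5 CPM to 44.5 and 48.1 CPM (log2 fold change 1.21, adjusted p = 2.94e-08), although 74.9% of its 31-base words occur in other genes, mainly the antisense neighbour *Mars1*. *Slc3a2*, an amino acid transporter subunit, and *Aars1*, a tRNA synthetase, rose by 0.47 and 0.42. Their FL/FL libraries lay above both WT/FL libraries, and 7909 of the 15257 tested genes had groups that did not overlap in either direction. The mean log2 CPM over the 29 genes was 5.18 ± 0.0245 (SD, n = 2) in the FL/FL against 4.83 ± 0.122 (SD, n = 2) in the WT/FL libraries. Without WT/FL library 1, WT/FL library 2, FL/FL library 1 and FL/FL library 2 in turn, 9, 13, 14 and 11 of the 29 rose, and 9 did so in the interaction with untreated cells.

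Of 19 cytosolic chaperone genes, 9 rose and none fell (median 0.17). *Ahsa1*, the activator of the HSP90 ATPase, stood at 283 and 280 CPM against 167 and 159 CPM (log2 fold change 0.79, adjusted p = 2.69e-10), and *Dnaja1* and *Hspa8* rose by 0.48 and 0.26. Of the 31-base words of *Dnaja1*, 80.2% occur in other genes, mainly the antisense neighbour *Smu1*. Leaving out any one library gave 6 increases and the interaction gave 3. Of 22 genes of the endoplasmic reticulum unfolded protein response, 7 rose and none fell (median 0.15), among them *Hspa5* (0.34), *Dnajb11* (0.29) and *Syvn1* (0.35); *Hspa5* shares 38.9% of its 31-base words with other genes, mainly *Rabepk*. Of 29 proteasome genes, 9 rose and none fell (median 0.15), led by *Psmb4* (0.23), *Psma4* (0.26) and *Psmd2* (0.20). The proteasome count was the least stable of these, at 2, 7, 5 and 3 without WT/FL library 1, WT/FL library 2, FL/FL library 1 and FL/FL library 2, and 2 in the interaction.

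Of the mitosis and cytokinesis genes, all 46 tested members had a negative log2 fold change (median -0.28), and 19 of them passed the test. *Mki67*, a proliferation marker, stood at 273 and 245 CPM against 376 and 332 CPM (log2 fold change -0.45, adjusted p = 6.29e-04). The kinesin gene *Kif20a* and the spindle gene *Ckap2* fell by 0.49 and 0.59 on the log2 scale, and 48.2% of the 31-base words of *Kif20a* occur in other genes, mainly *Cdc23*. The number that passed was 8, 8, 12 and 4 without WT/FL library 1, WT/FL library 2, FL/FL library 1 and FL/FL library 2, and 6 in the interaction. The median of the list was 0.12 on day 3 and -2.02 on day 4. Of 49 genes of DNA replication and nucleotide synthesis 4 rose and 1 fell (median -0.03), including *Pcna* (log2 fold change 0.44) and *Timeless* (0.58) upward and *Rrm2* (-0.23) downward. Without WT/FL library 2 or FL/FL library 1, 2 of them rose, and of the fits without 1 library the decrease passed in the one without FL/FL library 1. With untreated FL/FL cells as control, 2 of these genes rose and 15 fell (median -0.20), and the median in the interaction was -0.16. The 2 lists were not tested against each other.

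Cyclins moved in both directions. *Ccnd2*, a D-type cyclin that drives entry into the cell cycle, stood at 42.8 and 46.7 CPM in the FL/FL and at 17.1 and 14.4 CPM in the WT/FL libraries (log2 fold change 1.51, adjusted p = 2.0e-07). *Ccnd1*, which shares 47.5% of its 31-base words with other genes, stood at 445 and 410 CPM against 242 and 260 CPM (log2 fold change 0.77, adjusted p = 9.79e-08), while *Ccna2*, the cyclin of S phase and G2, stood at 101 and 99.3 CPM against 132 and 142 CPM (-0.45, adjusted p = 6.96e-05). The groups did not overlap for any of the 3, as was the case for 7909 of the 15257 tested genes. Among p53 targets, 4 of 27 rose and 4 fell (median -0.04). The CDK inhibitor gene *Cdkn1a* rose by 0.42 (adjusted p = 3.89e-06) and *Plk2* by 0.97, whereas *Sesn1* fell by 0.45 and *Trp53inp1* by 0.42. Without FL/FL library 1, 1 of the decreases passed, and without FL/FL library 2, 2 did.

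Immune mediators outside the IFN list rose in part. Of 17 chemokine genes 3 rose, *Ccl4*, *Ccl3* (log2 fold change 0.98) and *Ccl8* (1.53), and *Pf4* fell by 0.38; without WT/FL library 2, 2 rose. Of 28 cytokine and growth factor genes 7 rose and 2 fell, and without WT/FL library 2 and FL/FL library 1 in turn 0 and 1 fell. *Il1rn*, the interleukin-1 receptor antagonist, stood at 39.4 and 40.8 CPM against 17.2 and 19.7 CPM (log2 fold change 1.12, adjusted p = 2.42e-08). *Tnfsf8* and the anti-inflammatory cytokine gene *Il10* rose by 1.31 and 1.19. *Tnf* rose by 0.38 (adjusted p = 0.0263) but missed an adjusted p of 0.05 in 5 of its 13 alternatives, which were the fit of only the 4 libraries, the interaction, and the fits without WT/FL library 1, FL/FL library 1 or FL/FL library 2 (log2 values from 0.10 to 0.62). The genes *Il6* and *Il1b* did not pass the test (log2 fold changes 1.92 and -0.54, adjusted p = 0.194 and 0.365).

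Of 24 NF-κB subunits and inhibitors 4 rose and *Ier3* fell (median 0.07), among them *Ikbke* (0.31), *Rel* (0.28) and *Nfkbiz* (0.40), and 1 rose without WT/FL library 2 and 2 without FL/FL library 2, while 9 rose and none fell with untreated FL/FL cells as control. Of 31 immediate early genes 6 rose and 1 fell (median 0.17). *Atf3*, a stress-induced repressor, stood at 227 and 225 CPM against 116 and 115 CPM (log2 fold change 0.97, adjusted p = 1.0e-10). Of 26 genes of DNA sensing and nucleic acid degradation 7 rose, and *Cgas* was among them (36.8 and 33.0 CPM against 24.3 and 25.3 CPM, log2 fold change 0.49, adjusted p = 0.00105). The count of increases was 4, 4, 4 and 3 with WT/FL library 1, WT/FL library 2, FL/FL library 1 and FL/FL library 2 left out. *Sting1* and *Exo1* did not pass the test (0.04 and -0.19, adjusted p = 0.85 and 0.693).

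*Acod1*, which makes itaconate, stood at 710 and 801 CPM in the FL/FL and at 258 and 370 CPM in the WT/FL libraries (log2 fold change 1.27, adjusted p = 2.32e-05). It belongs to a list of 14 arginine, itaconate and tryptophan genes of which 6 rose, with *Ass1* (0.61) and *Azin1* (0.34), and *Glul*, glutamine synthetase, fell by 0.54. Of 21 genes of lipid uptake and storage 6 rose, including the lipid droplet gene *Plin2* (0.65) and the nuclear receptor gene *Pparg* (0.69), and *Ppard* fell by 0.37; 4 rose without WT/FL library 1, WT/FL library 2 or FL/FL library 1, and no decrease passed without any one library. Of 44 lysosome genes 12 rose and *Sgsh* fell, with *Gla* (0.55), *Ctss* (0.38) and *Npc2* (0.43) upward; 7 rose without FL/FL library 2. Of 22 targets of NRF2, the regulator of antioxidant genes, none rose and 6 fell (median -0.13), among them *Cat* (-0.50), *Gclm* (-0.66) and *Gclc* (-0.48), and 2 fell without WT/FL library 2 or FL/FL library 2; without WT/FL library 2, 2 rose.

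Receptors and lineage factors changed in both directions. Of 39 lineage factors and receptors 5 rose and 8 fell; *Etv3*, *Id2* and *Spi1*, which encodes PU.1, rose by 0.40, 0.36 and 0.25, and beside *Gab1* the aryl hydrocarbon receptor gene *Ahr* and *Cebpa* fell by 1.05 and 0.57. With WT/FL library 1, WT/FL library 2, FL/FL library 1 and FL/FL library 2 left out, 5, 5, 4 and 4 fell and 4, 3, 3 and 3 rose. Of 20 chemoattractant receptors 7 rose and 3 fell, with *Ccrl2* (1.33), *S1pr2* (0.64) and *C3ar1* (0.46) upward and *Cx3cr1* (-0.68), *Gpr183* (-0.49) and *S1pr1* (-0.39) downward; 1 fell without WT/FL library 1 or FL/FL library 1. Of 16 prostaglandin and leukotriene enzymes 3 fell, *Hpgd*, *Ptgs1* (-0.43) and *Alox5* (-0.54), and 2 did so without WT/FL library 2 or FL/FL library 1. Of 16 genes of iron handling 2 rose and 2 fell. The decreases were *Slc40a1*, the iron exporter ferroportin, which fell by 1.06 (adjusted p = 0.00533), and *Trf*, transferrin, which fell by 0.58. *Slc40a1* missed an adjusted p of 0.05 in the fit of only the 4 libraries, in the interaction and without WT/FL library 2 or FL/FL library 1 (log2 values from -1.34 to -0.72), and *Trf* missed it in the interaction.

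Receptor and autophagy lists gave counts that changed with the library left out. Of 26 autophagy genes 2 rose and 6 fell (23.1%), with *Uvrag* (0.39) upward and the kinase gene *Ulk1* (-0.32) and *Map1lc3b* (-0.28), which encodes an LC3 protein of the autophagosome, downward. With WT/FL library 1, WT/FL library 2, FL/FL library 1 and FL/FL library 2 left out, 4, 3, 1 and 3 of them fell, and 1 did in the interaction. Of 26 purinergic, adenosine and metabolite receptor genes 2 rose and 6 fell (23.1%), among the latter *Entpd1* (-0.48), which encodes the ectonucleotidase CD39; with the same libraries left out 3, 4, 1 and 4 fell, and 0 did in the interaction. Of 24 costimulatory and adhesion ligands 5 rose and none fell (20.8%), with *Ly9* (0.27) and *Selplg* (0.29), and 3, 1, 2 and 2 rose with the same libraries left out. Of 31 phagocytic and pattern receptors 5 rose and 3 fell, with the Toll-like receptor genes *Tlr8* (0.45) upward and *Tlr2* (-0.45) downward, and 5, 1, 4 and 4 rose and 3, 2, 1 and 3 fell with those libraries left out. Of 25 inhibitory myeloid receptors 4 rose and 1 fell, with *Lair1* (0.37) and *Cd300lf* (0.99) upward, and 3, 2, 4 and 2 rose with those libraries left out. Of 25 genes of MAPK and cytokine feedback 4 rose and none fell, led by *Rgs1* (1.57), a regulator of G protein signaling.

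Of 76 nuclear respiratory chain genes 2 rose and none fell, of 24 cholesterol synthesis genes 1 fell, and of 31 ribosome biogenesis genes 1 rose. All 13 mitochondrially encoded genes were lower (median -0.41), but 0 passed an adjusted p of 0.05 in edgeR, 5 had an unadjusted p below 0.05 and 2 passed in DESeq2. In edgeR 9 passed without the filter on low counts, 5 when only the 4 libraries were fitted, 4 with untreated FL/FL cells as control and 1 when only the 16 libraries with 4-OHT were fitted. Mitochondrial transcripts made up 2.17% and 2.22% of the counts in the FL/FL and 2.98% and 2.61% in the WT/FL libraries. In untreated day 2 cells they made up 2.48% and 3.56% in the FL/FL and 2.56% and 2.66% in the WT/FL libraries. Between the untreated genotypes the median of the 13 genes was 0.24, and in the interaction it was -0.64.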

How the data were processed

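RNA-seq of total RNA from BMDMs was deposited as a table of estimated counts per gene, which per the labels and methods the authors made with FastQC 11.9, Salmon and tximport on GRCm39; the values are whole numbers. The 32 libraries fall into 16 groups of 2 by genotype, 4-OHT and day. Genes were filtered with filterByExpr (minimum count 10), leaving 15257 of 54281. edgeR 4.0.16 in R 4.3.3 (TMM, robust quasi-likelihood fit, 1 mean per group, 16 residual degrees of freedom, no covariates) tested FL/FL minus WT/FL, with Benjamini-Hochberg adjustment over all tested genes. CPM are TMM-scaled. An exact permutation test of 2 against 2 libraries cannot go below p = 0.33. The libraries of a group differed by more than sampling noise (chi-square per degree of freedom 9.55 and 19.9). Fits were tested on simulated data in which all genes had the same spread. Real genes differ in spread, so that test does not speak for single calls. DESeq2 1.42.0, other normalizations, filters, sample sets and left-out libraries were alternatives. Symbols and coordinates came from a GENCODE GRCm39 annotation, which named 51048 IDs; the other IDs hold 0.32% of counts.

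Genes named by rank were the 15 largest increases and 10 largest decreases among protein-coding calls outside the IFN list with non-overlapping groups; from each list, the 3 members with the smallest adjusted p in each direction could be named. *Cxcl10*, *Isg15*, *Irf7* and *Ifit3* and *Tnf*, *Il6*, *Il1b*, *Cgas*, *Sting1*, *Exo1*, *Mki67* and *Cdkn1a* were given whatever their p. Members and lists were chosen with earlier results of these data known.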

Additional observations from a re-analysis of the deposited data

Results flagged for a closer look

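The genotype difference on day 2 was larger than the mean of days 3 and 4 for *Map2* by 1.57 on the log2 scale and for *Mageh1* by -1.56, that is, more negative on day 2. These were 2 of 25 genes tested, all chosen for the size of their day 2 change, which favours a larger day 2 value. In the FL/FL libraries the levels were 10.0 and 6.44 CPM for *Map2* and 0.421 and 0.472 CPM (17 and 17 counts) for *Mageh1*.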

How the results depend on the processing

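With 2 libraries per group, counts of calls moved with the processing, and so did calls of single genes. In the interaction with untreated cells, 60 named genes no longer passed an adjusted p of 0.05 in edgeR. At adjusted p below 0.01 and absolute log2 fold change above 1.5, the 28 higher and 11 lower genes outside the IFN list became 55 and 41 without the filter, 46 and 6 with only the 4 libraries, and 61 and 18 against untreated FL/FL cells; the interaction gave 4 lower. Dropping the fold gave 626 and 372, and adjusted p below 0.05 with log2 fold change above 1 gave 114 and 37. Over all genes, 76 and 13 became 137 and 20 against untreated FL/FL cells, 868 and 378 without the fold, and 218 and 40 with the relaxed thresholds; the lower count was 43 without the filter, 8 with the 4 libraries and 6 in the interaction. Leaving out 1 library gave 15 to 26 higher and 5 to 9 lower outside the list, and 54 to 81 and 7 to 11 over all genes. At adjusted p below 0.05, the interaction gave 517 higher and 212 lower outside the list (931 and 725 before) and 758 and 217 overall (1189 and 731). Left-out libraries gave 611 to 650 and 394 to 462 outside, and 845 to 895 and 400 to 468 overall. *Hrh1* changed sign against untreated FL/FL cells (-0.11). The causes were not tested. The lists held no IFN-list member, so counting those in gave no other value. No paired analysis was possible because the labels give no replicate numbers or shared origin.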
